A study of Mus musculus with 6 samples.

Results

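Transcripts of the enzymes that carry pyruvate into the mitochondrion and through the tricarboxylic acid (TCA) cycle, and of those that refill the cycle, were compared between control and JAG1-overexpressing mouse astrocytes. The genes were taken from a list of 34 symbols matched to the gene symbol column of the deposited tables, written in capitals. The match used no expression value, but the list was drawn up with earlier results of these data known. Of the listed symbols, 33 were found among 23282 rows. PC, the listed symbol of pyruvate carboxylase, had no row, because the tables name that mouse gene PCX, which is described with the other genes of the pathway. A low-count filter left 11712 genes to test, among them 31 of the 33 enzymes, and the other 2, PDK2 and PDK4, are given by their reads.

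Pyruvate made by glycolysis enters the mitochondrion through the MPC1 and MPC2 carrier and is oxidized to acetyl-CoA by the pyruvate dehydrogenase complex, which PDK kinases switch off by phosphorylation and PDP phosphatases switch back on. The TCA cycle oxidizes the acetyl group, while pyruvate carboxylase, malic enzymes, glutamate dehydrogenase and the aspartate transaminases exchange carbon with the cycle. In brain, astrocytes are the cells known for pyruvate carboxylation, which makes new oxaloacetate for glutamate and glutamine synthesis.

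All 6 libraries came from Ink4a-/- murine astrocytes, which lack the Ink4a/Arf tumor suppressor locus, grown in DMEM. The 3 control libraries were from cells given the empty vector pcDNA3.1-puro, and their genotype is labelled WT, here read as without added JAG1. The 3 JAG1-overexpressing libraries were from cells given pcDNA3.1-JAG1-puro, which encodes the Notch ligand JAG1. The sources do not state whether the libraries of a group were separate transfections or whether the transfected cells were clones, so that the p-values measure the spread between these libraries, which may be technical. In such bulk RNA, fewer cells carrying a transcript and less of it per cell cannot be told apart.

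The tables held between 14341634 and 20489062 reads counted on genes per library, and 3 reads, taken as the limit of detection, were worth 0.148 to 0.206 counts per 1000000 reads (CPM). JAG1 itself had 8.99, 10.8 and 11.2 CPM in the control libraries and 15.2, 13.6 and 13.8 CPM in the JAG1-overexpressing libraries, a log2 fold change of 0.46 ± 0.11 (SE, adjusted p = 0.00446, edgeR's quasi-likelihood test with Benjamini-Hochberg adjustment). The library method reads 3′ ends, and the sources used here do not give the 3′ end of the added JAG1 transcript. The JAG1 row may therefore miss reads of the added copy. CDKN2A, the gene of the deleted locus, had at most 5 reads in any library. Of 9 astrocyte markers, 4 exceeded 3 reads in every library, GFAP and AQP4 had no read in any, and SLC1A2 and SLC1A3 had at most 3. The summed level of the astrocyte list was 310.0 to 369.6 CPM in control and 107 to 122 CPM in JAG1-overexpressing libraries, and most of it was SOX9 and GJA1. SOX9, a glial transcription factor, fell from a mean of 181 to 18.0 CPM, and GJA1, the gap junction protein connexin 43, fell from 151 to 96.7 CPM. The 5 fibroblast markers summed to 420 to 470 CPM in control and 249 to 290 CPM in JAG1-overexpressing libraries. Its genes did not move alike: COL1A1, COL3A1 and DCN fell, COL1A2 rose from a mean of 3.35 to 50.7 CPM (log2 fold change 3.92 ± 0.13, SE, adjusted p = 1.42e-09), and LUM had no read in any library. Summed microglia, oligodendrocyte lineage, neuron and endothelial lists stayed below 5 CPM in each library, and the neuron list moved from 2.41 to 3.41 CPM in control to 0.275 to 0.449 CPM, carried by STMN2. The part of these marker changes in the results below was not tested.

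Of the 31 tested enzymes, 18 (58.1%) were higher in the JAG1-overexpressing libraries at an adjusted p under 0.05, where 27.4% of all tested genes were. Only 2, IDH1 and GOT2, were lower (6.45%, beside 27.7% of all tested genes). The share past the threshold in either direction was 64.5%, near the 55.1% of all tested genes, but it was divided 18 to 2 among the enzymes and 3211 to 3247 over all genes. The median log2 fold change of the enzymes was 0.29, beside 0.00 for all tested genes. Without PDK1, MPC1 and PDHA1, the first of which stood apart in size and the others of which may share reads with a neighbor or a pseudogene, 15 of 28 rose and 2 fell, at a median of 0.20. That alternative was chosen after the values were seen. It kept GOT2, ME1 and IDH3B, whose exons also overlap opposite-strand entries, as given below.

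Most of the differences were small. Only 7 of the 31 enzymes passed the threshold with a log2 fold change of at least 0.5 in size, where 30.8% of all tested genes did. They were PDK1, GOT1, DLAT, GLUD1, MPC1 and ME2 among the higher and IDH1 among the lower. A further 13 passed the threshold below that size, 12 of them higher with log2 fold changes of 0.16 to 0.44. In 20 of the 31 enzymes the lowest JAG1-overexpressing library exceeded the highest control library, and in 2 the order was the opposite. Over all 11712 tested genes these counts were 3643 and 3617, and 62.0% had groups that did not overlap in either direction. Together the enzymes took 0.444% to 0.452% of the reads in control and 0.507% to 0.517% in JAG1-overexpressing libraries, so the groups did not overlap in that share.

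**Figure D1:**
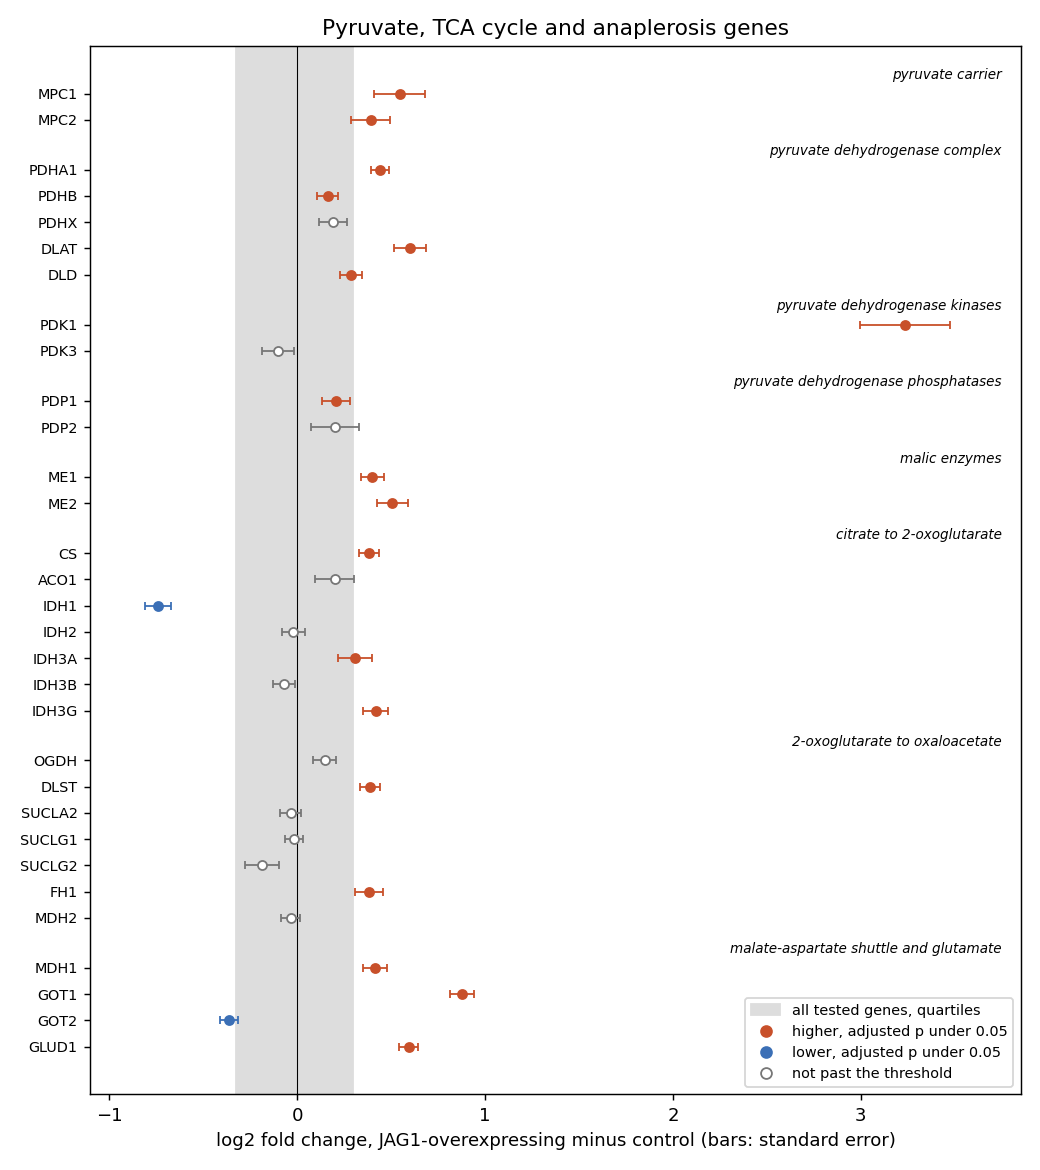
Log2 fold change of each tested enzyme, JAG1-overexpressing minus control, on the x axis, with genes grouped by role on the y axis, where bars are standard errors, filled points passed an adjusted p of 0.05, and the grey band spans the quartiles of all tested genes. PDK1 lies far to the right at 3.24, most filled points lie between 0.16 and 0.88, and only IDH1 (−0.74) and GOT2 (−0.36) are filled on the left.

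The mitochondrial pyruvate carrier is a heterodimer of MPC1 and MPC2, and both subunits rose. MPC1 had 7.85, 11.0 and 9.10 CPM in the control and 13.0, 12.2 and 15.4 CPM in the JAG1-overexpressing libraries, a log2 fold change of 0.54 ± 0.14 (SE, adjusted p = 0.00586). MPC2 had 33.3, 41.9 and 43.8 CPM in control and 50.8, 56.6 and 48.7 CPM in JAG1-overexpressing libraries, with a log2 fold change of 0.39 ± 0.10 (SE, adjusted p = 0.00721). For each subunit the groups did not overlap. The 3′ end of MPC1 was identical to the pseudogene Mpc1-ps over 191 bases, and a gene antisense to it had 3 to 16 reads in a library, so reads of these loci and of MPC1 may not have been separated.

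The pyruvate dehydrogenase complex joins a decarboxylase made of PDHA1 and PDHB, the acetyltransferase DLAT, the dihydrolipoamide dehydrogenase DLD and the binding protein PDHX. The transcripts of 4 of these 5 subunits rose, and their summed level went from 481 ± 10.3 (SD, n = 3) to 625 ± 18.8 CPM. DLAT rose the most, from 53.6, 61.5 and 68.2 CPM in control to 86.7, 96.4 and 94.8 CPM in JAG1-overexpressing libraries (log2 fold change 0.60 ± 0.09, SE, adjusted p = 0.000127, edgeR's quasi-likelihood test with Benjamini-Hochberg adjustment). PDHA1, the catalytic subunit that carries the regulatory phosphorylation sites, rose from 212, 210 and 222 CPM to 285, 295 and 295 CPM (log2 fold change 0.44 ± 0.05, adjusted p = 1.35e-05). In both genes the lowest JAG1-overexpressing library was above the highest control library. The 3′ end of PDHA1 overlaps exons of MAP3K15 on the opposite strand by 425 bases in GENCODE M21. MAP3K15 also rose, from 78.6 ± 4.69 to 97.8 ± 5.22 CPM (SD), and since the sources do not say whether the counting used strand, the reads of this pair cannot be told apart.

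DLD, which is shared with the 2-oxoglutarate and branched-chain 2-oxoacid dehydrogenases, rose from 94.2 ± 3.35 to 115 ± 5.50 CPM (SD, n = 3), with a log2 fold change of 0.29 ± 0.06 (SE, adjusted p = 0.00161). PDHB rose by 0.16 ± 0.06 on the log2 scale, from 63.3 ± 0.310 to 70.8 ± 1.83 CPM (SD), with an adjusted p of 0.0324. This call was lost with 7 of the 15 other settings, among them upper-quartile normalization, at an adjusted p of 0.0682. PDHX had a log2 fold change of 0.19 ± 0.08 (SE) and an adjusted p of 0.0525, just outside the threshold, although its control libraries at 45.7 to 49.1 CPM lay below its JAG1-overexpressing libraries at 50.8 to 60.3 CPM.

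PDK1, a kinase that phosphorylates PDHA1 and so inactivates the complex, differed more than any other of the enzymes. It had 11, 16 and 26 reads in the control and 171, 141 and 130 reads in the JAG1-overexpressing libraries. On the CPM scale this was 0.543, 0.859 and 1.36 in control and 8.52, 9.70 and 7.90 in JAG1-overexpressing libraries, a 9.43-fold rise (log2 fold change 3.24 ± 0.24, SE, adjusted p = 6.53e-07, edgeR's quasi-likelihood test with Benjamini-Hochberg adjustment). The groups lay far apart, with the highest control library below every JAG1-overexpressing library, and leaving out any library kept the log2 fold change between 2.96 and 3.62. The sequence just before the start of PDK1 is shown because it was the enzyme with the largest difference, and that of PDK3 because it was the most abundant of the 4 kinases and did not pass the test. Each is 150 bases, 5′ to 3′, ending at the base before an annotated start in RefSeq of GRCm38.p6, at chr2:71873074-71873223 on the plus strand for PDK1 and chrX:93832151-93832300 on the minus strand for PDK3. Capitals mark ACGTG, a form of the core of the element that hypoxia-inducible factors bind. The other form, GCGTG, was not searched and is left unmarked where it occurs.
PDK1: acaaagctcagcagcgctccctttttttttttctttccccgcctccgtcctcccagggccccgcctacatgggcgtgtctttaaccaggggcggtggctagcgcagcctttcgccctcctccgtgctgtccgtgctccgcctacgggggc
PDK3: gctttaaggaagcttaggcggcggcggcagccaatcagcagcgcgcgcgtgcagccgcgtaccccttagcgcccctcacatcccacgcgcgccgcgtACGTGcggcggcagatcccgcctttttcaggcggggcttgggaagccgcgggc

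ACGTG was searched on both strands of the windows from 250 bases before to 50 after each start, and it is also contained in the CACGTG motif. It was in neither of the 2 windows of PDK1 and at 1 place in that of PDK3, 53 bases before the start. Among the enzymes, 8 of the 30 with a window held it (26.7%), beside 21.8% of 27025 genes. The ERR response element, TCAAGGTCA, was in none of the 30, beside 0.466% of genes, and the NRF1 core, GCGCATGCG, was in that of OGDH alone (3.33%, beside 1.95%). These letter matches describe the windows and are not binding sites.

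QuantSeq reads only the 3′ end of each transcript, so CPM can be compared between genes without dividing by length. On that scale PDK3 was the main kinase in both groups, with 40.1 to 49.0 CPM in control and 39.7 to 42.8 CPM in JAG1-overexpressing libraries, ranges that overlap (log2 fold change −0.10 ± 0.08, SE, adjusted p = 0.330). PDK2 had 3 to 13 reads in control and 2 to 5 in JAG1-overexpressing libraries, and PDK4, which is known to be induced by fasting and fatty acids, had 2 to 6 and 6 to 13 reads. Both were too low to test. PDK1 made up 1.08% (95% exact interval 0.541 to 1.93), 2.08% and 3.07% (2.02 to 4.47) of the reads of the 4 kinases in the control libraries. In the JAG1-overexpressing libraries its share was 17.4%, 19.3% (16.5 to 22.3) and 15.3% (13.0 to 18.0), and the intervals, which cover counting error only, of no control library overlapped one of these. The share of PDK3 was 95.6% to 97.4% in control and 79.6% to 83.2% in JAG1-overexpressing libraries, so it stayed the larger even where PDK1 was high.

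**Figure D2:**
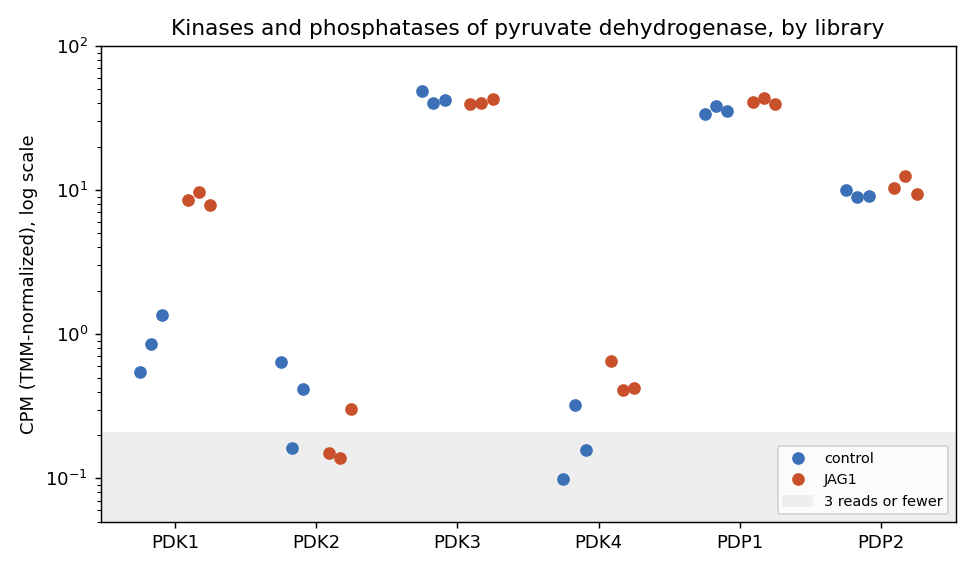
TMM-normalized CPM on a log scale for the 4 kinases and 2 phosphatases of pyruvate dehydrogenase, 1 point per library, control in blue and JAG1-overexpressing in orange, and grey marks up to the highest level that 3 reads stand for (0.206 CPM). The PDK1 groups are separated by more than the whole range within either, the PDK3 and PDP2 points overlap, and several PDK2 and PDK4 points lie in or next to the grey area.

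The phosphatases PDP1 and PDP2 remove the phosphate that the kinases add. PDP1, the calcium-sensitive form, rose from 34.0, 38.0 and 35.4 CPM in control to 40.9, 43.3 and 39.7 CPM in JAG1-overexpressing libraries (log2 fold change 0.21 ± 0.07, SE, adjusted p = 0.0318). The groups did not overlap, but the call was lost with 6 of the 15 other settings, among them the DESeq2 Wald test, at an adjusted p of 0.0555. PDP2 overlapped between the groups, with 8.91 to 9.97 CPM in control and 9.35 to 12.6 CPM in JAG1-overexpressing libraries (adjusted p = 0.198). Summed over each family, kinases went from 45.3 ± 4.53 to 50.3 ± 1.20 CPM and phosphatases from 45.1 ± 1.59 to 52.1 ± 3.51 CPM (SD, n = 3). The log2 ratio of kinase to phosphatase reads was 0.00 ± 0.19 (SD) in control and −0.05 ± 0.11 in JAG1-overexpressing libraries, and the exact permutation test gave a two-sided p of 0.7, where 0.1 is the smallest that 3 against 3 libraries allow.

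Malic enzymes convert malate to pyruvate, and both of those on the list, ME1 and ME2, rose. ME1, the cytosolic form that supplies NADPH, had 72.9, 72.3 and 74.6 CPM in control and 99.8, 90.8 and 99.5 CPM in JAG1-overexpressing libraries (log2 fold change 0.40 ± 0.06, SE, adjusted p = 0.000170). ME2, a mitochondrial form, had 22.0, 23.3 and 26.1 CPM in control and 35.0, 33.0 and 33.3 CPM in JAG1-overexpressing libraries (log2 fold change 0.51 ± 0.08, SE, adjusted p = 0.000330). Neither gene had overlapping groups, and the ratio of the pair moved little, as given with the other isozymes. A mitochondrial malic enzyme outside this list, ME3, had overlapping groups at 5.59 ± 0.837 and 6.18 ± 0.831 CPM (SD). It was not past the threshold (log2 fold change 0.16 ± 0.16, SE, adjusted p = 0.428, edgeR's quasi-likelihood test with Benjamini-Hochberg adjustment).

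From citrate to 2-oxoglutarate, 3 of the 7 transcripts rose and 1 fell, and the 57.1% past the threshold was near the 55.1% of all tested genes. CS, citrate synthase, which joins acetyl-CoA and oxaloacetate, rose from 207, 209 and 221 CPM in control to 278, 263 and 289 CPM in JAG1-overexpressing libraries (log2 fold change 0.38 ± 0.05, SE, adjusted p = 0.000115). ACO1, the cytosolic aconitase that also acts as an iron-sensing RNA-binding protein, ranged over 33.1 to 43.5 CPM in control and 39.8 to 48.8 CPM in JAG1-overexpressing libraries, which overlap (adjusted p = 0.133). The mitochondrial NAD-linked isocitrate dehydrogenase consists of 3 kinds of subunit that did not move alike: IDH3G went from 71.2 ± 3.12 to 95.2 ± 6.94 CPM (SD, n = 3, log2 fold change 0.42 ± 0.07, SE, adjusted p = 0.000329) and IDH3A from 69.0 ± 9.89 to 85.5 ± 2.67 CPM (0.31 ± 0.09, adjusted p = 0.0145). The call of IDH3A was lost without the second JAG1-overexpressing library, at an adjusted p of 0.0538. IDH3B had 72.4 ± 2.38 and 69.0 ± 1.71 CPM (SD) and a log2 fold change of −0.07 ± 0.06 (SE), not past the threshold (adjusted p = 0.329).

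IDH1, the cytosolic and peroxisomal NADP-linked isocitrate dehydrogenase that is mutated in many gliomas, fell the most of the enzymes. It had 87.9, 91.5 and 93.7 CPM in control and 49.8, 55.0 and 58.7 CPM in JAG1-overexpressing libraries, and the groups stood well apart. The level was 1.67-fold lower, with a log2 fold change of −0.74 ± 0.07 (SE, adjusted p = 4.96e-06, edgeR's quasi-likelihood test with Benjamini-Hochberg adjustment). IDH2, the mitochondrial NADP-linked form, had 257 to 286 CPM in control and 252 to 285 CPM in JAG1-overexpressing libraries, nearly the same range (log2 fold change −0.02 ± 0.06, SE, adjusted p = 0.798). The counts give the level of IDH1 transcript and say nothing of its coding sequence.

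From 2-oxoglutarate to oxaloacetate, 2 of the 7 transcripts rose and none fell, with a median log2 fold change of −0.02. The 28.6% that rose was close to the 27.4% of all tested genes. DLST, the succinyltransferase of the 2-oxoglutarate dehydrogenase complex, rose from 186, 171 and 169 CPM to 232, 227 and 230 CPM (log2 fold change 0.39 ± 0.05, SE, adjusted p = 8.02e-05). OGDH, the first enzyme of the same complex, had 44.5 to 46.1 CPM in control and 48.9 to 51.7 CPM in JAG1-overexpressing libraries, which did not overlap, but it was not past the threshold (adjusted p = 0.0659). FH1, fumarase, rose from 78.4, 87.6 and 89.7 CPM to 111, 101 and 120 CPM (log2 fold change 0.38 ± 0.08, SE, adjusted p = 0.00127). None of the 3 subunits of succinyl-CoA synthetase passed the threshold: SUCLA2 had 107 ± 2.04 and 104 ± 4.94 CPM (SD), SUCLG1 135 ± 2.83 and 133 ± 1.83 CPM, and SUCLG2 41.4 ± 4.50 and 36.4 ± 2.41 CPM in control and JAG1-overexpressing libraries, with adjusted p of 0.630, 0.781 and 0.105. MDH2, mitochondrial malate dehydrogenase, was the most abundant of the enzymes at 1519 to 1660 CPM in control and 1529 to 1570 CPM in JAG1-overexpressing libraries, and was not past the threshold either (log2 fold change −0.03 ± 0.05, SE, adjusted p = 0.578). It made up 33.9% to 36.3% of the enzymes' reads in control and 29.9% to 31.0% in JAG1-overexpressing libraries.

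The malate-aspartate shuttle moves reducing equivalents from cytosol to mitochondrion with a cytosolic and a mitochondrial form of malate dehydrogenase and of aspartate transaminase. Its cytosolic enzymes rose, while the mitochondrial transaminase fell. GOT1, the cytosolic transaminase, had 68.2, 64.1 and 63.1 CPM in control and 112, 121 and 126 CPM in JAG1-overexpressing libraries, a 1.84-fold rise (log2 fold change 0.88 ± 0.06, SE, adjusted p = 5.50e-07, edgeR's quasi-likelihood test with Benjamini-Hochberg adjustment). GOT2, its mitochondrial counterpart, had 178, 180 and 177 CPM in control and 138, 136 and 143 CPM in JAG1-overexpressing libraries (log2 fold change −0.36 ± 0.05, SE, adjusted p = 7.45e-05). The groups were separate in both genes and in opposite order. An opposite-strand GENCODE entry, for which the tables hold no row under its name, overlaps exons of GOT2 by 162 bases, and its reads cannot be told apart from those of GOT2 if strand was not used. ME1 and IDH3B overlap opposite-strand genes by 30 and 5 bases. MDH1, the cytosolic malate dehydrogenase, rose from 129 ± 6.55 to 171 ± 11.5 CPM (SD, n = 3, log2 fold change 0.41 ± 0.06, SE, adjusted p = 0.000205). GLUD1, glutamate dehydrogenase, which links glutamate to 2-oxoglutarate, was the second most abundant of the enzymes and rose from 435, 417 and 428 CPM to 637, 672 and 622 CPM (log2 fold change 0.59 ± 0.05, SE, adjusted p = 1.61e-06).

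GOT1 lies on chromosome 19, where the 422 tested genes had a median log2 fold change of 0.61 and 313 were higher. GOT1 was 0.27 above that median, and 91 genes of the chromosome rose more. No other of the 33 enzymes lies on chromosome 19, and without GOT1 17 of 30 rose and 2 fell at a median of 0.25, an alternative chosen after the values were seen. None lies on chromosome 15, where the median was −0.53. The part of these chromosome-wide shifts in the level of GOT1 was not tested.

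**Figure D3:**
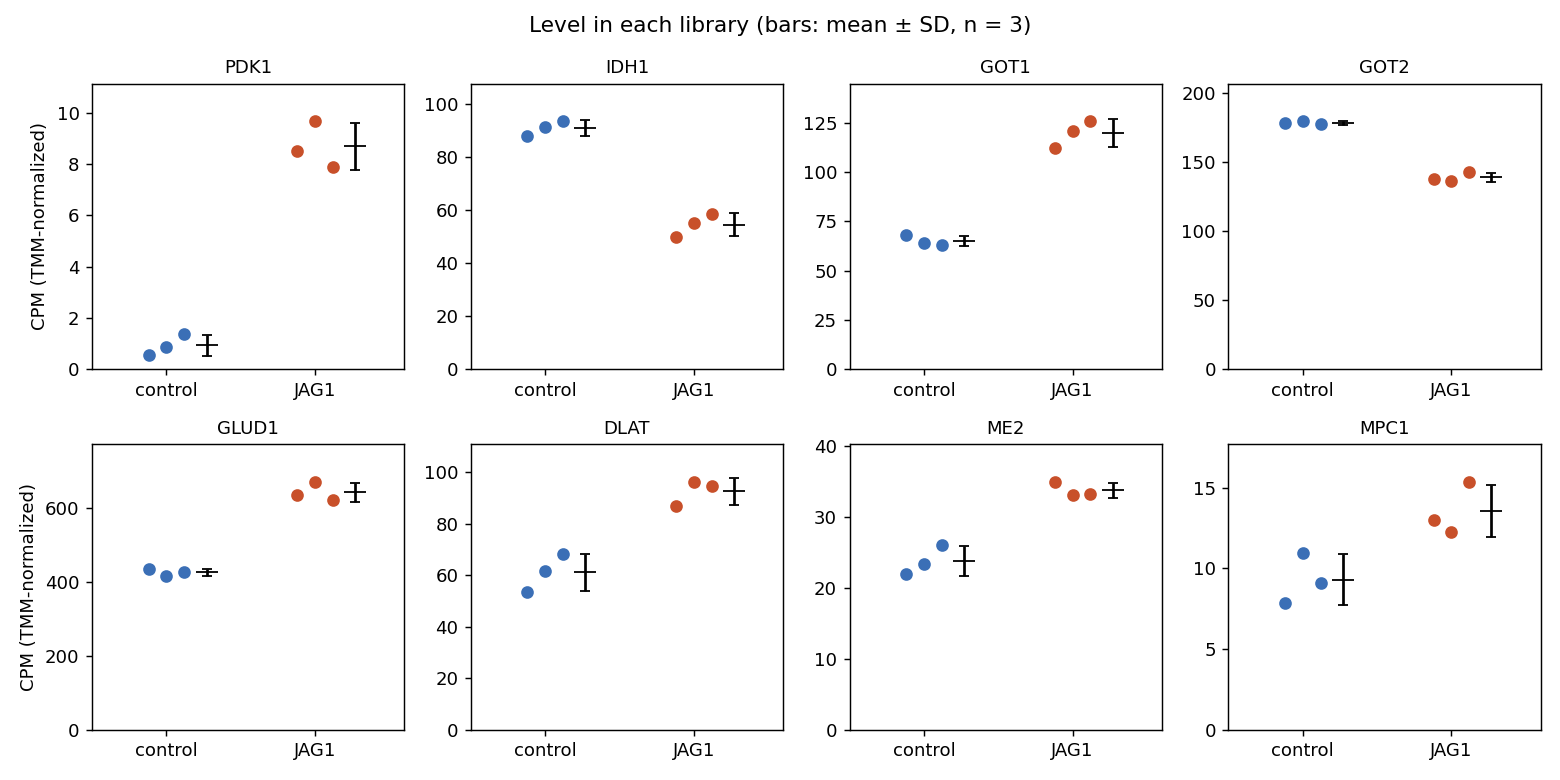
TMM-normalized CPM in each library for the 7 enzymes past the threshold with a log2 fold change of at least 0.5 in size and for GOT2, with control in blue and JAG1-overexpressing in orange, where black bars are the mean and SD of 3 libraries and each axis starts at 0. In each panel the groups do not overlap, with IDH1 and GOT2 lower and the other 6 genes higher in the JAG1-overexpressing libraries.

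Ratios of isozymes within a library do not depend on library size or normalization. The log2 ratio of GOT1 to GOT2 reads was −1.45 ± 0.06 (SD, n = 3) in control and −0.21 ± 0.07 in JAG1-overexpressing libraries, a change of 1.24, or from 0.365 to 0.863 cytosolic reads per mitochondrial read. The ratio of MDH1 to MDH2 rose by 0.45 on the log2 scale, from −3.63 ± 0.13 to −3.18 ± 0.08, and that of IDH1 to IDH2 changed the opposite way, by −0.72, from −1.56 ± 0.13 to −2.28 ± 0.12. In these 3 ratios the groups did not overlap, and each reached an exact two-sided permutation p of 0.1 (0.167 after Benjamini-Hochberg adjustment over 5 ratios), the smallest this design allows. ME1 to ME2 had log2 ratios of 1.63 ± 0.11 and 1.52 ± 0.06 (SD), a difference of −0.11 with an exact permutation p of 0.2 (0.25 adjusted). The cytosolic over mitochondrial ratio thus differed in direction between the transaminase and malate dehydrogenase pairs on the one side and the NADP-linked isocitrate dehydrogenases on the other.

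**Figure D4:**
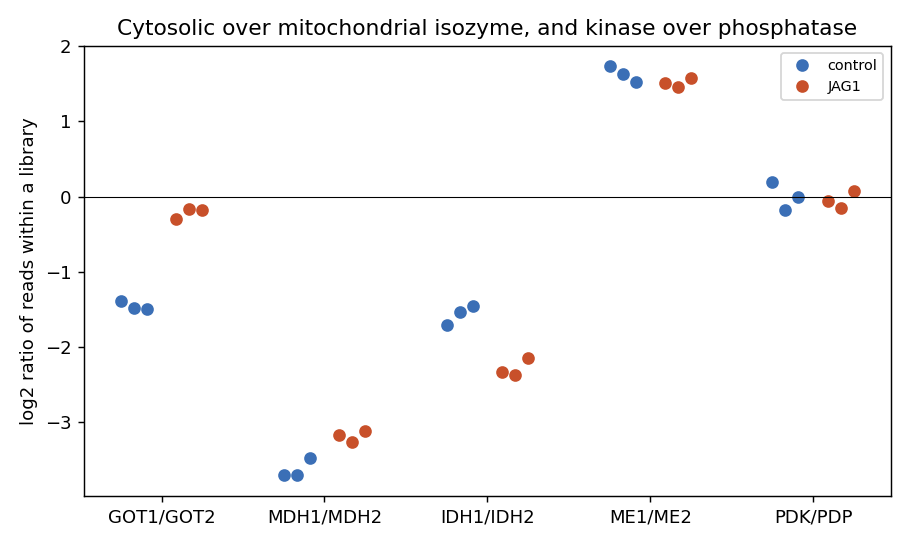
Log2 ratio of reads of a cytosolic over a mitochondrial isozyme, and of all 4 kinases over both phosphatases, within each library, where points are libraries, control in blue and JAG1-overexpressing in orange. GOT1/GOT2 and MDH1/MDH2 are higher in every JAG1-overexpressing library, IDH1/IDH2 is lower in each, and the ME1/ME2 and PDK/PDP points overlap.

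The genes around these enzymes were read from a second list of 44 genes, namely succinate dehydrogenase, lipoate synthesis and related dehydrogenases, carriers, and other entries to and exits from the cycle. Of the 39 tested, 18 rose (46.2%, beside 27.4% of all tested genes) and 8 fell (20.5%, beside 27.7%), with a median log2 fold change of 0.24 beside 0.00. Past the threshold either way were 66.7%, beside 55.1% of all tested genes. Without D2HGDH, which reached the cutoff of the low-count filter in the JAG1-overexpressing libraries alone, 17 of 38 rose and 8 fell at a median of 0.21, a count chosen after the values were seen. Of the 8 genes of succinate dehydrogenase and its assembly, SDHB and SDHAF2 rose and SDHAF4 fell. SDHD, named here for its spread, had 12.4, 62.4 and 112 CPM in control and 86.3, 143 and 116 CPM in JAG1-overexpressing libraries. It was not past the threshold (log2 fold change 0.88 ± 0.50, SE, adjusted p = 0.160, edgeR's quasi-likelihood test with Benjamini-Hochberg adjustment). The cause of that spread was not tested. Of the 7 tested carriers, 3 rose and 1 fell, and their 57.1% past the threshold was near the 55.1% of all tested genes. Of the 7 tested genes of lipoate synthesis and related dehydrogenases, 4 rose and 1 fell (71.4% past the threshold). Of the 17 tested other entries and exits, 9 rose and 5 fell (82.4%), while 37.5% of the succinate dehydrogenase genes were past the threshold.

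PCX, pyruvate carboxylase, which makes oxaloacetate from pyruvate and is the main anaplerotic enzyme of astrocytes, rose the most of this list. It had 44, 38 and 45 reads in control and 311, 260 and 243 reads in JAG1-overexpressing libraries, or 2.19 ± 0.158 and 16.1 ± 1.64 CPM (SD, n = 3). The log2 fold change was 2.87 ± 0.14 (SE, adjusted p = 1.80e-08, edgeR's quasi-likelihood test with Benjamini-Hochberg adjustment). PCX also lies on chromosome 19, where it was 2.26 above the median of the chromosome and 11 genes rose more. D2HGDH, which oxidizes D-2-hydroxyglutarate and had the next larger value, was near the limit of detection, with 6, 4 and 3 reads in control and 12, 10 and 9 reads in JAG1-overexpressing libraries (0.157 to 0.296 and 0.547 to 0.688 CPM). It passed the filter through that group alone, so its test is not given.

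GLUL, glutamine synthetase, which astrocytes are known for in brain, fell the most of this list, from 26.8 ± 2.18 to 15.3 ± 0.503 CPM (SD, log2 fold change −0.82 ± 0.09, SE, adjusted p = 1.42e-05). SLC25A10, the mitochondrial dicarboxylate carrier, fell from 30.9 ± 1.47 to 19.1 ± 0.599 CPM (log2 fold change −0.69 ± 0.08, adjusted p = 1.80e-05). These 4 genes were named by a rule of size, and the 3 carriers of the malate-aspartate shuttle on the list were chosen once their values were known. The aspartate-glutamate carriers rose, SLC25A12 from 36.9 ± 1.63 to 74.7 ± 4.83 CPM (log2 fold change 1.02 ± 0.07, adjusted p = 4.06e-07) and SLC25A13 from 66.9 ± 3.07 to 89.1 ± 7.06 CPM (0.41 ± 0.07, adjusted p = 0.000466). SLC25A11, the oxoglutarate carrier, had overlapping groups at 109 ± 10.7 and 103 ± 1.06 CPM and was not past the threshold (log2 fold change −0.08 ± 0.07, adjusted p = 0.351).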

How the data were processed

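RNA of 3 control and 3 JAG1-overexpressing libraries, prepared with the QuantSeq 3′ mRNA method, had been processed by the authors into 1 table per library, which gives for each gene symbol raw read counts and a log2 normalized count. The submitters' processing notes list Bowtie2, bedtools, edgeR, GRCm38 and mm10, with no role or version, and the annotation and the use of strand in counting are not given in the sources used here. Results rest on the deposited counts, and 1 alternative on the deposited log2 values. No column was left without a sample (0 columns).

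In R 4.3.3, edgeR 4.0.16 was used to keep 11712 genes (filterByExpr, minimum count 10), scale libraries by TMM and compare the groups with the quasi-likelihood test with Benjamini-Hochberg adjustment over all of them, at a threshold of 0.05. Standard errors were derived from the F statistic. The common biological coefficient of variation was 0.0770. Totals of 14341634 to 20489062 counts per library limit the precision of low genes, and intervals cover counting error only. No pair of libraries differed by as little as sampling noise (lowest chi-square per degree of freedom 3.83). Isozyme ratios were compared by exact two-sided permutation tests over libraries. Gene symbols were matched to RefSeq of GRCm38.p6 (22059 symbols, 1090 synonyms, 133 neither), which gave chromosomes and promoter windows. Shared 3′ ends were searched over the last 300 bases of GENCODE M21 transcripts, at 95% identity over 100 bases or more.

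The enzymes, the second list and the markers were chosen with earlier results of these data known. All enzymes are accounted for, with library values for those past the threshold and 0.5 in log2 size, and from the second list the 2 largest rises and the 2 largest falls past the threshold were named. Alternatives were DESeq2 1.42.0 (size factors and Wald test), upper-quartile scaling, library size alone, no filter, a mean of 10 reads, limma-voom and the deposited log2 values with limma 3.58.1, a fold limit of 1.5, a replicate block, and leaving out each library. The scripts were tested on simulated data.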

Additional observations from a re-analysis of the deposited data

How the results depend on the processing

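Across 15 other settings, 17 of the 20 enzymes past the threshold stayed past it and 7 of the 11 not past it stayed short of it. With a fold limit of 1.5, the calls were 4 higher and 1 lower among the enzymes, 9 higher and 4 lower in the second list and 1395 higher and 1711 lower among all tested genes. Under the other settings that keep all libraries, 16 to 20 enzymes rose and 2 fell, and their median was 0.26 to 0.30 on the log2 scale. Leaving out 1 library at a time gave 15 to 19 higher, 2 to 3 lower and a median of 0.25 to 0.33 for the enzymes, 15 to 18 higher and 6 to 7 lower in the second list, and 2724 to 3256 higher and 2792 to 3344 lower among all tested genes.

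Values that changed sign were all close to 0. Leaving out 1 library at a time, the log2 fold change of IDH2 ranged from −0.0717 to 0.0259 (without control replicate 1, and 0.0190 without JAG1 replicate 1), that of SUCLA2 from −0.0606 to 0.00544 (without JAG1 replicate 2), and the change of the kinase to phosphatase log2 ratio from −0.143 to 0.0444 (without control replicate 1, and 0.000397 without JAG1 replicate 2). The cause was not tested. SUCLG2 passed the threshold without control replicate 1, at a log2 fold change of −0.27 (adjusted p = 0.00875, edgeR's quasi-likelihood test with Benjamini-Hochberg adjustment), and ACO1 without control replicate 3, at 0.30 (adjusted p = 0.0222).

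The main test did not use the replicate numbers. Deviations from the group means correlated weakly between libraries of the same number, at 0.15, 0.06 and 0.12. For unlike numbers the correlations were −0.14 to 0.01, and each library correlated best with its own number. With so few libraries, these values cannot decide whether the numbers pair the libraries. With the replicate block, 20 enzymes were higher and 2 lower, with PDHX (adjusted p = 0.0305) and ACO1 (adjusted p = 0.0411) past the threshold. PDK2 and PDK4 had too few reads to be tested at this depth.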
